A study of Mus musculus with 21 samples.

Results

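The nuclear genes of oxidative phosphorylation were examined in RNA-seq of germ cells enriched from juvenile mouse testes. Rows were taken whose gene symbol begins with Ndufa, Ndufb, Ndufc, Ndufs or Ndufv, with Sdha to Sdhd, with Uqcr, with Cox4 to Cox8 or with Atp5, leaving out 1 symbol marked as a pseudogene, and these were 93 of the 37620 genes in the table. By their known products, 74 were subunits that most tissues use and 3 were isoforms known from testis. A further 6 were other isoforms or related forms of complex IV subunits, 6 were assembly factors, and 4 matched by symbol only. All germ cells came from C57BL/6J males at 12 dpp, whose testes were digested with collagenase and trypsin to enrich germ cells, and the labels give no mutation or treatment. The 12 libraries fell into 4 sample numbers (186wt, 343wt, 444wt and 456wt) of 3 libraries each. What a sample number stands for (an animal, a pool or a preparation) is not given in the sources used here. A mean was taken over the 3 libraries sharing a number, giving 4 replicates (n = 4), and values are given as mean FPKM ± SD over the 4 numbers.

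Oxidative phosphorylation is the process by which the inner mitochondrial membrane turns the electrons of NADH and succinate into a proton gradient and the gradient into ATP. Complex I takes electrons from NADH and complex II from succinate, complex III passes them to cytochrome c, complex IV hands them to oxygen, and complex V makes ATP. A few core subunits are encoded by mitochondrial DNA, while the nucleus encodes the rest, and complex IV in particular exchanges nuclear subunits between tissues, with Cox6b2, Cox7b2 and Cox8c known from testis and sperm.

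The libraries held an estimated 13.1 to 18.3 M fragments each (median 15.2 M), and 3 fragments over all 12 libraries amounted to 0.0163 FPKM for a gene of 1 kb effective length. Markers of meiotic prophase were detected for 12 of 12 genes in the table, among them Sycp3 at 73.1 FPKM, a protein of the chromosome axis, and 6 of 8 round spermatid markers reached 0.1 FPKM, from 0 FPKM for Prm2 and 0.040 for Acrv1 to 1.32 for Izumo1 and 2.09 for Spaca1. Markers of somatic cells were detected as well. Of the Sertoli cell markers 9 of 9 were present. Their summed level ranged between 1948 FPKM in the lowest number (444wt) and 3536 FPKM in the highest (343wt). Clu alone held 1251 and 2380 FPKM of these sums, and the median over the Sertoli markers was lowest in 456wt (47.5 FPKM). Summed meiotic markers were 535 (343wt) to 856 FPKM (444wt), and sums of different lists do not give shares of cells. Summed peritubular myoid cell markers were 286 FPKM at the lowest (343wt) and 1257 FPKM at the highest (456wt). Leydig cell markers (16.1 to 110.5 FPKM) and macrophage markers (8.21 to 33.8 FPKM) were both lowest in 444wt and highest in 343wt. In such bulk samples, fewer cells of a type and less RNA per cell cannot be told apart.

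The testis isoforms and their common paralogs are separate genes, and their coding sequences are shown here because the results on them rest on reads being assigned to the right gene. Cox6b2 (chromosome 7, 4703396 to 4704696, minus strand) and Cox6b1 (chromosome 7, 31401993 to 31411170, minus strand) encode the intermembrane-space subunit 6B of complex IV. Cox7b2 (chromosome 5, 71834063 to 71939444, minus strand) and the X-linked Cox7b (chromosome X, 103211039 to 103217789, plus strand) encode the small membrane subunit 7B. Positions are those of the GENCODE M1 annotation on NCBI build 37, the build of the files. Each sequence runs 5′ to 3′ from start to stop codon, with the bases that are identical in the aligned partner in capitals.
Cox6b2: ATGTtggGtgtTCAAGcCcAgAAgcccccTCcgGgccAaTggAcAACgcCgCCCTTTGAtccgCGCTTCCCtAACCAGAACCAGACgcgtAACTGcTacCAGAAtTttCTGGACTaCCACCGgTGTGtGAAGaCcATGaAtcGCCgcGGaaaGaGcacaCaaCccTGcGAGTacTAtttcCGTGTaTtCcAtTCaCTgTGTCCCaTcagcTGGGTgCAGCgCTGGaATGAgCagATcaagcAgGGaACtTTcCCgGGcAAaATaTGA
Cox6b1: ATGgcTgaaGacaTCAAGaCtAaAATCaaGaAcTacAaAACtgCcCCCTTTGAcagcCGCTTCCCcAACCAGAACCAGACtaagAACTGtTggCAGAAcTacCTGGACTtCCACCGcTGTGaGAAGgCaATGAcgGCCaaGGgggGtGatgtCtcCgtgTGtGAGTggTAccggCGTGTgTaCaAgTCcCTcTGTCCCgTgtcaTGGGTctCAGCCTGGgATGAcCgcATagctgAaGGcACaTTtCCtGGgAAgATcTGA
Cox7b2: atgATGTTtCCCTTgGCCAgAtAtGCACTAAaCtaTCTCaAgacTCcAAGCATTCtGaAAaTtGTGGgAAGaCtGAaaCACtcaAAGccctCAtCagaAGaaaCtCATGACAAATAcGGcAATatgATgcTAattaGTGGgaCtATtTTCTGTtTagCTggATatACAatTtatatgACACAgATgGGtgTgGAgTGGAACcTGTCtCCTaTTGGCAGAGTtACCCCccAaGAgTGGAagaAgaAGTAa
Cox7b: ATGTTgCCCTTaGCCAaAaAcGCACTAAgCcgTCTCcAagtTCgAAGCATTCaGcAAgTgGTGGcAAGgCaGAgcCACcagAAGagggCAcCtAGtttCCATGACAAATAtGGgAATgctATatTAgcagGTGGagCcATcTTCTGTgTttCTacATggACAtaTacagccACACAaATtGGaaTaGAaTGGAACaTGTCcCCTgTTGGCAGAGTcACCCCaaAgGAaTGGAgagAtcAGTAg
The 267 bases of Cox6b2 and the 261 bases of Cox6b1 were identical at 166 of 257 aligned positions (64.6%), and the longest run without a difference was 14 bases. Cox7b2 (249 bases) and Cox7b (243 bases) shared 65.4% of aligned bases with a longest run of 11, and Cox8c (chromosome 12, 104137516 to 104138744, plus strand) and Cox8a (chromosome 19, 7289648 to 7292106, minus strand) shared 63.8% with a longest run of 9. All these runs are far shorter than a read, so a read within the coding sequence can tell the paralogs apart. None of the 3 testis isoforms had a copy of at least 97% identity over 100 bases or more elsewhere in the table.

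The common subunits were expressed at a high level throughout. All 74 lay in the top quartile of the 20795 genes counted as expressed (mean FPKM of 0.1 or more), a quartile that began at 21.1 FPKM, and their median was 89.2 FPKM. The range ran from 23.6 ± 2.14 FPKM for Ndufa11, an accessory subunit of complex I, to 406.6 ± 21.5 FPKM for Atp5b, the catalytic beta subunit of complex V. Of the 93 genes, 78 lay in the top quartile, 90 reached 1 FPKM, and all 93 reached 0.1 FPKM.

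**Figure D1:**
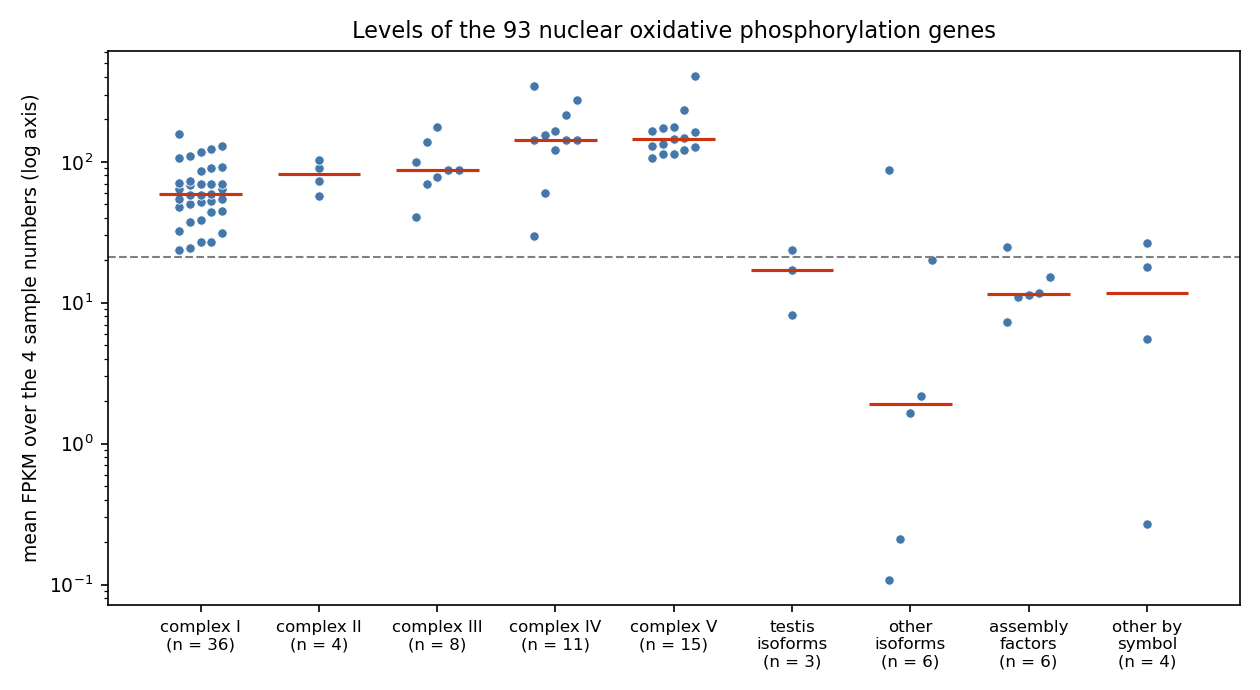
Mean FPKM over the 4 sample numbers (log axis) of the 93 genes, each point 1 gene, by complex for the 74 common subunits and by class for the others; red lines are class medians and the dashed line is the start of the top quartile (21.1 FPKM). Every common subunit lies above the dashed line, and complexes IV and V have the highest medians (143.8 and 145.9 FPKM). Of the 6 other isoforms, 4 lie below 3 FPKM.

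The complexes differed in their typical subunit level. The 36 common subunits of complex I had a median of 58.7 FPKM, the 4 of complex II 82.0, the 8 of complex III 87.3, the 11 of complex IV, to which Ndufa4 belongs despite its symbol, 143.8 and the 15 of complex V 145.9. These medians are a description, since the subunits of a complex are not replicates. Within complex I, the 7 core subunits, which carry the flavin and the iron-sulfur clusters, had a median of 69.8 FPKM, and the 29 accessory subunits, which build the outer parts of the complex, had a median of 58.0 FPKM.

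Single subunits of 1 complex spanned several-fold differences. In complex I, Ndufb9 was highest with 141.9, 140.3, 174.3 and 174.2 FPKM in 186wt, 343wt, 444wt and 456wt, and Ndufa11 was lowest with 21.2, 22.8, 24.3 and 26.2 FPKM. In complex II, the flavoprotein Sdha stood at 102.6 ± 6.75 FPKM and the membrane anchor Sdhd at 56.8 ± 3.96 FPKM. In complex III, the hinge protein Uqcrh stood at 175.5 ± 15.6 FPKM and the Rieske iron-sulfur protein Uqcrfs1 at 40.9 ± 2.57 FPKM. None of these pairs overlapped in any sample number. In complex IV, Cox4i1, the subunit that takes part in regulation by ATP, was the highest with 309.1, 323.7, 369.6 and 374.5 FPKM, and among common subunits Cox7b was the lowest with 28.4, 29.9, 28.6 and 32.8 FPKM. In complex V the lowest was Atp5j, coupling factor 6, at 106.1 ± 3.04 FPKM, and the highest was Atp5b.

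Some levels carry a limit from near-identical copies. Of the 93 genes, 20 had at least 1 copy elsewhere in the table at 97% identity or more over at least 100 bases, 29 copies in all, of which 22 were annotated as pseudogenes. The copies summed to 10% or more of the gene's own FPKM for 3 genes. The Cox7c pseudogene Gm12338, identical to Cox7c over 192 bases, was listed at 159.8 FPKM against 120.6 ± 9.27 FPKM for Cox7c itself, so the split of reads between both is uncertain. Atp5l2 (0.270 FPKM), annotated as a pseudogene, shared 391 bases at 99.4% identity with Atp5l (127.4 FPKM), and Ndufc1 shared 108 bases with Polg2.

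Most of the 10 genes that are not subunits lay below all common subunits. Atp5sl and Ndufaf2 lay above the lowest of these, Ndufa11 (23.6 FPKM). The assembly factors Ndufaf1 to Ndufaf4, Sdhaf1 and Sdhaf2, which help to build complexes I and II without staying in them, had a median of 11.5 FPKM and ranged from 7.30 (Ndufaf3) to 24.8 FPKM (Ndufaf2). Atp5s, Atp5sl and Cox4nb were at 5.57, 26.4 and 18.0 FPKM. Cox4nb is by function a gene of a membrane protein complex of the endoplasmic reticulum. It lies head to head with Cox4i1 on chromosome 8, 177 bases away, and was 19.1 and 20.1 FPKM in 444wt and 456wt against 16.2 and 16.5 FPKM in 186wt and 343wt. The same 2 sample numbers were the higher ones for both neighbours. They were also most often the highest over all expressed genes (36.3% in 444wt and 27.3% in 456wt). Atp5f1 and Ndufb9, on other chromosomes, had the same 2 higher numbers.

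The testis isoforms of complex IV were all detected, and each stayed below its common paralog in 4 of 4 sample numbers. In 186wt, 343wt, 444wt and 456wt, Cox6b2 stood at 22.5, 16.7, 24.4 and 31.0 FPKM, and Cox6b1 at 144.3, 157.7, 153.5 and 168.0 FPKM. The groups did not overlap, and Cox6b2 made up 13.1 ± 2.53% of the pair. The log2 ratio of isoform to paralog, taken on log2(FPKM + 0.1), was -2.75 ± 0.34, a 6.72-fold lower level of Cox6b2.

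Cox7b2 came closest to its paralog. It stood at 14.2, 15.9, 18.7 and 19.7 FPKM, against 28.4, 29.9, 28.6 and 32.8 FPKM for Cox7b. The lowest Cox7b library (26.0 FPKM) was above the highest Cox7b2 library (21.0 FPKM). Cox7b2 made up 36.3 ± 2.76% of the pair, with a log2 ratio of -0.81 ± 0.17, or 1.76-fold lower. This is also the pair in which the common gene lies on the X chromosome and the testis isoform on an autosome.

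Cox8c, the testis form of the smallest subunit, was the lowest of the 3 isoforms. It stood at 8.27, 7.89, 5.59 and 10.8 FPKM, and Cox8a at 128.5, 142.1, 149.6 and 152.0 FPKM. Cox8c made up 5.38 ± 1.31% of the pair, and its log2 ratio was -4.15 ± 0.40, or 17.8-fold lower. An estimated 615 fragments over the 12 libraries stood behind Cox8c. For each of the 3 pairs the exact two-sided sign-flip test over the 4 sample numbers gave p = 0.13, which is the smallest p that 4 numbers allow, so no pair could pass 0.05.

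**Figure D2:**
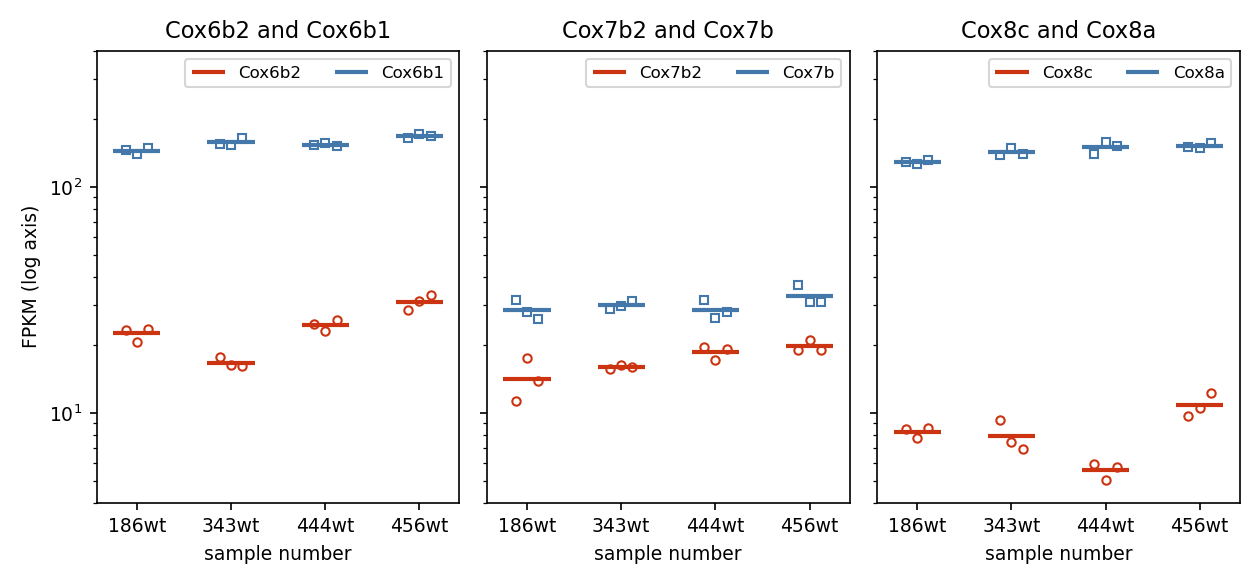
FPKM (log axis) of the 3 testis isoforms of complex IV (red circles) and their common paralogs (blue squares) in each of the 12 libraries by sample number; horizontal lines are the means of 3 libraries. Each isoform lies below its paralog in every library, with the smallest distance for Cox7b2 (17.1 against 29.9 FPKM on average).

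The size of the ratio varied between sample numbers for Cox6b2 and Cox8c. For Cox6b2 the log2 ratio was -2.68, -3.23, -2.65 and -2.43 in 186wt, 343wt, 444wt and 456wt, and the exact permutation test over all 15400 assignments of the 12 libraries to 4 numbers gave an adjusted p = 0.00303 over the 14 pairs compared. Without 343wt, in which Cox6b2 was lowest, the adjusted p was 0.0571. With a number left out the test has far fewer assignments and a larger smallest p, so a lost call may also come from the coarser test. For Cox8c the ratio was -3.94, -4.15, -4.72 and -3.80 (exact permutation test, adjusted p = 0.00506), and without 444wt, the lowest number, the adjusted p was 0.163. For Cox7b2 the ratios lay between -0.998 and -0.614 (exact permutation test, adjusted p = 0.216). The 2 isoforms therefore had their lowest ratio in different sample numbers. Summed meiotic markers were lowest in 343wt and highest in 444wt, and summed myoid markers were lowest in 343wt and highest in 456wt; their part in these differences was not tested.

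The 6 other isoforms, among them forms known from heart, skeletal muscle, lung or hypoxic cells, fell into a well expressed pair and 4 low genes. Cox7a1, the heart and muscle form of subunit 7A, and Cox7a2l, which takes part in supercomplex assembly, made up the pair. Cox7a1 stood at 27.1, 18.4, 15.0 and 19.6 FPKM against 56.8, 59.6, 59.7 and 64.8 FPKM for Cox7a2, a log2 ratio of -1.62 ± 0.39, and it was highest in 186wt in all 3 libraries. Its ratio differed between sample numbers (exact permutation test, adjusted p = 0.00364), but not without 186wt (0.105) or without 444wt (0.0625). Cox7a2l, with 76.5, 86.1, 89.0 and 95.8 FPKM, was the only member of the 6 that exceeded its paralog, by a log2 ratio of 0.52 ± 0.065 in 4 of 4 sample numbers. Its ratio did not pass the test between sample numbers (exact permutation test, adjusted p = 0.195).

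The other 4 were low. Cox4i2, the lung form of subunit 4, stood at 1.22, 1.29, 1.2 and 2.92 FPKM, a log2 ratio to Cox4i1 of -7.71 ± 0.52, and Ndufa4l2, a hypoxia-induced form of Ndufa4, at 1.91, 1.78, 1.31 and 3.65 FPKM, a log2 ratio to Ndufa4 of -6.09 ± 0.55. Both were highest in 456wt, without overlap between its 3 libraries and the other 9, and both ratios differed between sample numbers (exact permutation test, adjusted p = 0.0120 and 0.00511). Both calls were lost without 456wt, where the adjusted p was 0.458 and 0.225, and Cox4i2 was at 0.0571 without 444wt. The same sample number held the highest summed myoid markers (1257 FPKM against 286 to 754) and endothelial markers (43.8 FPKM against 16.4 to 25.2), whose part in this was not tested. Cox6a2 and Cox8b, the heart and muscle forms of subunits 6A and 8, were at 0.212 ± 0.124 and 0.108 ± 0.130 FPKM, which corresponds to an estimated 23.96 and 5.98 fragments over all 12 libraries. Cox8b was listed at 0 in 7 libraries, including all 3 of 186wt, and no fold is given for it.

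The 3 genes Atp5g1, Atp5g2 and Atp5g3 encode the same mature c subunit of the ATP synthase rotor, with different import sequences, and were expressed side by side. Atp5g1 stood at 131.3, 149.2, 150.2 and 152.8 FPKM, Atp5g2 at 125.5, 130.1, 139.5 and 143.0 FPKM, and Atp5g3 at 158.4, 185.9, 148.3 and 160.3 FPKM. Atp5g1 was lower than Atp5g3 in 3 of 4 numbers (log2 ratio -0.16 ± 0.16, exact sign-flip p = 0.25), and Atp5g2 in 4 of 4 (-0.28 ± 0.19, exact sign-flip p = 0.13). Both ratios differed between sample numbers (exact permutation test, adjusted p = 0.00364 and 0.00318) and were lowest in 343wt, where Atp5g3 had its highest level. Without 343wt the adjusted p for Atp5g2 was 0.0667.

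Outside the symbols of the rule, 3 further testis-specific genes of the mitochondrion gave the same kind of comparison. Cyct, the testis cytochrome c, stood at 12.8, 11.8, 19.6 and 16.7 FPKM against 54.6, 63.4, 40.8 and 34.2 FPKM for Cycs, with a log2 ratio of -1.65 ± 0.71. Slc25a31, the germ cell ADP/ATP translocase, stood at 61.5, 68.3, 94.4 and 85.4 FPKM against 156.6, 178.9, 100.1 and 124.4 FPKM for the general Slc25a5, a log2 ratio of -0.84 ± 0.64. Pdha2, the testis alpha subunit of pyruvate dehydrogenase, was at 4.86 ± 0.923 FPKM against 17.5 ± 2.41 FPKM for the X-linked Pdha1 (log2 ratio -1.83 ± 0.19). All 3 ratios differed between sample numbers (exact permutation test, adjusted p = 0.00303, 0.000909 and 0.0313). Cyct lost the call without 186wt (0.05) and without 343wt (0.0625), and Pdha2 without 343wt (0.1) and without 444wt (0.065). For Cyct and Slc25a31 the 2 numbers with the higher ratio were 444wt and 456wt, which also had the lower summed Sertoli markers (1948 and 2133 FPKM, against 3402 and 3536 FPKM in 186wt and 343wt) and the higher summed spermatogonial markers (997 and 867 against 687 and 728 FPKM). The part of cell composition in these ratios was not tested.

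Levels of the common subunits differed little in size between the sample numbers, but the differences exceeded the spread between libraries for most of them. By limma's moderated F-test on log2(FPKM + 0.1), 74 of the 93 genes differed between the 4 numbers at an adjusted p under 0.05 (79.6%), against 58.2% of all 20795 genes tested and 87.95% of the 5444 genes of at least 20 FPKM. Among common subunits the count was 63 of 74 (28 of 36 in complex I, 4 of 4 in complex II, 7 of 8 in complex III, 10 of 11 in complex IV and 14 of 15 in complex V). All 3 testis isoforms, 4 of 6 other isoforms, 2 of 6 assembly factors and 2 of the other 4 genes passed. Read against the genes of similar level, the share among the members was not above the background.

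The size of the differences is given as a description by class. The median distance between the highest and the lowest sample number was 0.23 on the log2 scale for the common subunits, 0.32 for all genes of at least 20 FPKM and 0.54 for all genes tested. It was 0.89 for the testis isoforms and 1.19 for the other isoforms. The smallest distance among the members was that of Ndufa10, with 36.5, 38.4, 37.93 and 37.96 FPKM (0.07), and the largest among common subunits was that of Ndufab1, the mitochondrial acyl carrier protein, with 104.2, 106.7, 138.2 and 122.7 FPKM (0.41).

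The 6 genes with the smallest p were Atp5f1, Atp5b, Cox4i1, Ndufb9, Ndufa9 and Atp5o. Atp5f1, a subunit of the peripheral stalk of complex V, stood at 106.5, 112.2, 133.9 and 130.4 FPKM (limma F-test, adjusted p = 1.01e-06), and the 6 libraries of 444wt and 456wt did not overlap the other 6. Cox4i1 and Ndufb9 had the same grouping. For Atp5b, with 378.3, 417.3, 402.6 and 428.0 FPKM, the 3 libraries of 186wt spanned 377.8 to 378.6 FPKM and lay below all others. Ndufa9, at 61.0, 67.6, 74.8 and 76.9 FPKM, and Atp5o, the stalk subunit known as OSCP, at 145.3, 166.4, 177.9 and 176.8 FPKM, were also lowest in 186wt. The coordinates of Atp5o overlap those of Donson (20.1 FPKM) with 287 shared bases, and the strand of the counting is not given in the sources used here.

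Most common subunits shared their lowest sample number. Of the 74, 50 were lowest in 186wt, 15 in 444wt, 6 in 343wt and 3 in 456wt, whereas 36 were highest in 456wt and 1 was highest in 186wt. Among all 20795 expressed genes, 27.8% were lowest in 186wt and 27.3% highest in 456wt. Most of these genes are less abundant (median 5.005 FPKM), and the order was not counted over genes of a level like that of the subunits. The single common subunit with its highest level in 186wt was Ndufa1, an X-linked membrane subunit of complex I, at 102.7 FPKM against 87.6, 87.2 and 86.2 FPKM. The other X-linked genes did not share this order: Ndufb11 was at 48.6, 52.5, 41.6 and 48.6 FPKM, and Cox7b did not pass the F-test (limma, adjusted p = 0.197).

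**Figure D3:**
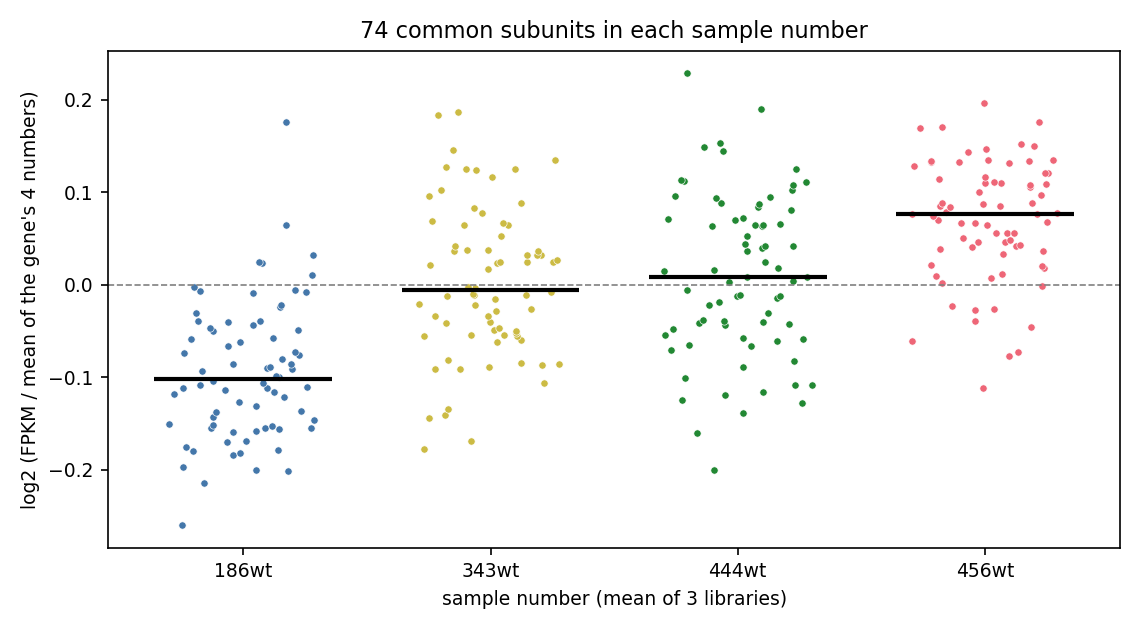
Level of each of the 74 common subunits in the 4 sample numbers as log2 of its FPKM over the mean of its own 4 values; each point is 1 gene, spread sideways at random, and black lines are medians. The median lies at -0.10 in 186wt and at 0.08 in 456wt, with 343wt and 444wt near 0.

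Between pairs of sample numbers the members were called higher more often than lower in 6 of 6 comparisons, which share sample numbers and are not independent; for 444wt against 343wt this turned under other scalings. In 343wt against 186wt, 29 of 93 genes were higher and 4 lower, where all genes tested gave 9.93% higher and 10.5% lower and genes of at least 20 FPKM gave 23.6% and 15.8%. In 444wt against 186wt, 46 were higher and 10 lower (all genes 26.1% and 16.3%). These were 49.5% and 10.8% of the members, so that the share of higher genes was near the 44.9% of genes of at least 20 FPKM, of which 28.7% were lower. In 456wt against 186wt, 59 were higher and 5 lower (25.9% and 15.5%). The last was the largest difference, with a median log2 change of 0.19 over the members against 0.08 over all genes. In genes of at least 20 FPKM it gave 39.9% higher and 28.5% lower, against 63.4% and 5.38% of the members.

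The remaining comparisons left out 186wt. In 456wt against 343wt, 39 were higher and 8 lower (all genes 27.6% and 14.2%). The 41.9% that were higher lay near the 38.3% of genes of at least 20 FPKM, of which 28.5% were lower against 8.60% of the members. In 456wt against 444wt, 30 were higher and 4 lower (15.1% and 13.1% of all genes, 19.3% and 25.4% of those of at least 20 FPKM). In 444wt against 343wt, 25 were higher and 20 lower (30.4% and 17.5% of all genes, 44.9% and 30.3% of those of at least 20 FPKM), with a median log2 change of 0.002 over the members against 0.14 over all genes. This balance turned with the scaling: 16 were higher and 31 lower when libraries were scaled to equal medians, and 20 higher and 25 lower when they were scaled to equal sums without mitochondrially encoded genes. Under the same scalings 444wt against 186wt gave 39 higher and 15 lower, and 37 higher and 16 lower. In 456wt against 343wt they gave 22 higher and 11 lower, and 31 higher and 9 lower. At equal medians, genes of at least 20 FPKM gave 41.3% and 31.0% for 444wt against 186wt, where members gave 41.9% and 16.1%. For 456wt against 343wt these genes gave 27.6% and 36.5%, where members gave 23.7% and 11.8%. At equal sums they gave 38.7% and 32.9% against 39.8% and 17.2%, and 32.6% and 32.9% against 33.3% and 9.68%. The share of higher members was thus near or below that of these genes, and the share of lower members was near or below it.

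**Figure D4:**
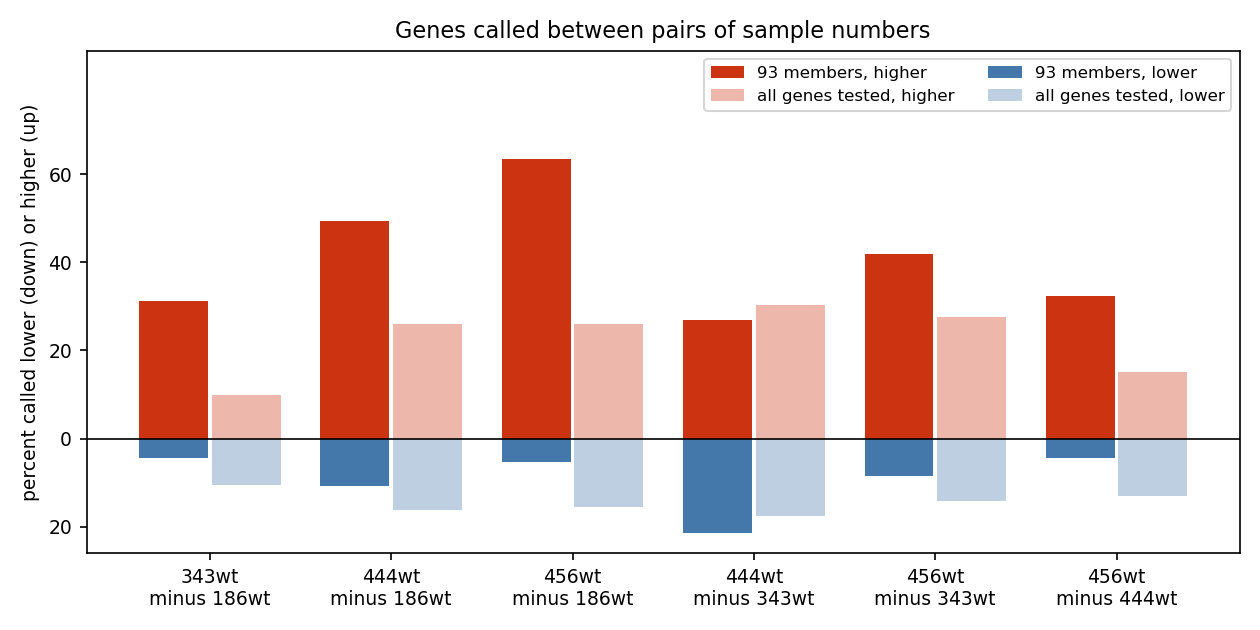
Percent of the 93 genes (solid bars) and of all 20795 genes tested (pale bars) called higher (up) or lower (down) at an adjusted p under 0.05 in each pair of sample numbers. For 456wt minus 186wt, 63.4% of the 93 genes were higher against 25.9% of all genes, while for 444wt minus 343wt the members were higher in 26.9% against 30.4%.

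The subunits encoded by mitochondrial DNA had the opposite order of sums. The summed FPKM of the 74 nuclear subunits was 7217, 7720, 7848 and 8149 in 186wt, 343wt, 444wt and 456wt, while the 13 mitochondrially encoded subunits summed to 56265, 50496, 48585 and 43157 FPKM. The ratio of mitochondrial to nuclear sum was 7.80, 6.54, 6.19 and 5.30, and the 3 libraries of a number never overlapped those of another. All 13 mitochondrially encoded genes passed the F-test, as did 87.95% of genes of at least 20 FPKM, and the most abundant was mt-Co1 with 9651, 8141, 8179 and 7059 FPKM. FPKM is a share of each library, and mitochondrially encoded genes took 11.8% of it in 186wt and 9.02% in 456wt. Without them the nuclear subunits made up 1.713, 1.804, 1.7996 and 1.857% of the rest, so that 186wt was still lowest and 456wt highest.

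**Figure D5:**
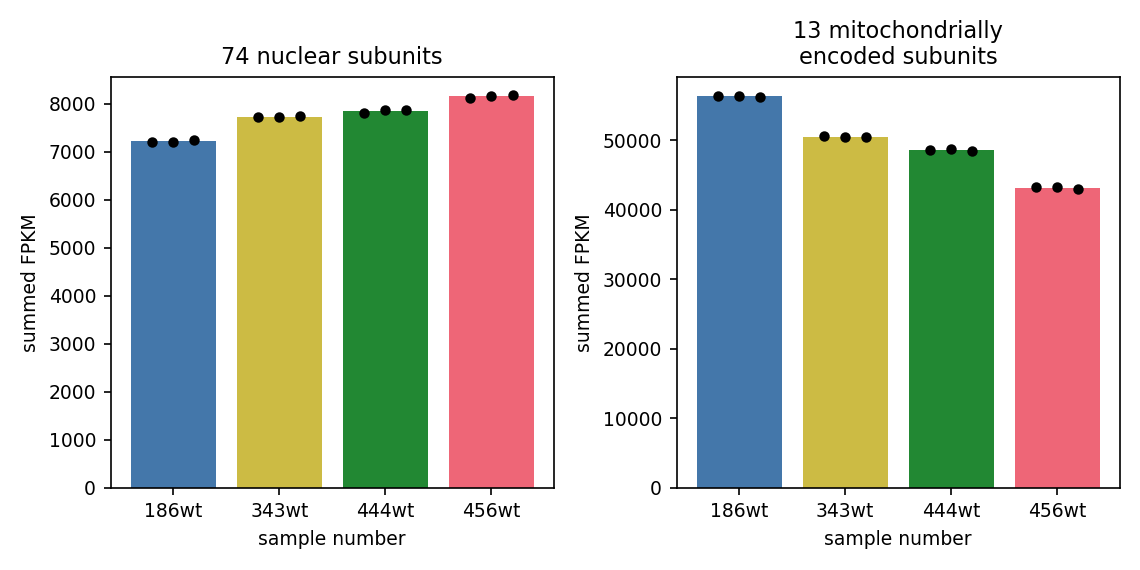
Summed FPKM of the 74 nuclear common subunits (left) and of the 13 mitochondrially encoded subunits (right) by sample number; bars are means of 3 libraries, points are the libraries, and both axes start at 0. The nuclear sum is lowest in 186wt (7217 FPKM) and highest in 456wt (8149 FPKM), and the mitochondrial sum is 56265 and 43157 FPKM there.

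Other genes of the pathway were tested in the same fit. All 10 electron carriers and translocases passed the F-test, as did 15 of 20 genes of pyruvate dehydrogenase and the citric acid cycle, 15 of 25 further assembly factors and 9 of 16 regulators, against 58.2% of all genes and 87.95% of those of at least 20 FPKM. The shares of the last 3 lists were below that of the more abundant genes. Among regulators, Nrf1 and Gabpa, factors known to bind promoters of nuclear respiratory genes, were at 31.0 ± 2.69 and 30.6 ± 3.14 FPKM and differed between numbers (limma F-test, adjusted p = 0.0111 and 0.00341), with the 2 higher values of each in 444wt and 456wt. The coactivator Ppargc1a was at 0.823 ± 0.148 FPKM and did not pass (limma F-test, adjusted p = 0.1247), while the related Pprc1 was at 63.5 ± 9.64 FPKM.

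The promoters of the members were searched for the core letters of these factors, GCATGCGC for NRF1 and CCGGAAG for the ETS factors to which GABPA belongs, on both strands. RefSeq promoters (GRCm38.p6, 250 bases before to 50 after the start) were found for 76 of the 93 genes. The NRF1 letters were present in 10 of 63 promoters of common subunits (15.9%), against 7.38% of genes of at least 20 FPKM and 2.80% of all 27025 promoters. The ETS letters were present in 15 of 63 (23.8%), against 22.3% of genes of at least 20 FPKM and 9.12% of all. Neither was found in the promoters of Cox6b2 and Cox7b2, which held a median of 10 CpG dinucleotides against 20 in the common subunits. Most promoters of common subunits lacked each set of letters as well. Among them was Cox7b, the paralog of Cox7b2, which held neither set and had 5 CpG dinucleotides. No promoter was found for Cox8c. Cox6a1, at 273.0 ± 20.9 FPKM the highest common subunit whose promoter held both, is shown beside Cox6b1 and Cox6b2 as the 250 bases before each start, 5′ to 3′, with the matches in capitals. In Cox6a1 the NRF1 letters match on both strands in 1 overlapping stretch.
Cox6a1, chr5:115348959-115349208, minus strand: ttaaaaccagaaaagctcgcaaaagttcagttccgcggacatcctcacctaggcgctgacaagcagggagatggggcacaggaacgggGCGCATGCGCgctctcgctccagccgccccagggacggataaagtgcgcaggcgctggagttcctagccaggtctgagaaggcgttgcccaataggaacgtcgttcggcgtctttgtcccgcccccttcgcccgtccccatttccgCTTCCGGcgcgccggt
Cox6b1, chr7:30626115-30626364, minus strand: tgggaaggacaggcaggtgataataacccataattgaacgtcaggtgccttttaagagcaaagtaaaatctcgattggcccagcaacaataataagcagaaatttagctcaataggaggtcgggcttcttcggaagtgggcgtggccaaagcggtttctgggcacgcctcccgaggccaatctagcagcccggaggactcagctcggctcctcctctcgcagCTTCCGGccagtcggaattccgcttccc
Cox6b2, chr7:4753095-4753344, minus strand: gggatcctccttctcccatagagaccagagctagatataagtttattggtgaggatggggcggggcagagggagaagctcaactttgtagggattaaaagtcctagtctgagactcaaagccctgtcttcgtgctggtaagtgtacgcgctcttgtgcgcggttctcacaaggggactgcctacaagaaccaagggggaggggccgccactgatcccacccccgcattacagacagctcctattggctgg
Cox6b1 held the ETS letters once near the start, and Cox6b2 held neither set. A match is a description of letters and not of binding.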

How the data were processed

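RNA-seq of 12 libraries was analysed; the other assays of the series were not used here. The deposited values are FPKM per gene, which the authors computed with RSEM 1.2.8 after aligning reads with Bowtie 0.12.9 to the NCBI build 37 transcriptome, removing reads with several mismatches. FPKM is a share of each library, so a change in abundant genes moves all others. Replicates are the means of 3 libraries per sample number. Since nothing says that numbers are separate animals, p-values measure only the spread between these libraries, which may be technical. Depth was estimated from the FPKM steps of genes with single fragments and covers counting error only.

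Genes whose mean FPKM was 0.1 or more were tested on log2(FPKM + 0.1) with limma 3.58.1 (lmFit, eBayes with trend, Benjamini-Hochberg adjustment over all genes; R 4.3.3), for any difference between the 4 numbers and for the 6 pairs of numbers. A fold change on this scale understates the change of low genes. Ratios of isoform to paralog were tested with an exact two-sided sign-flip test and an exact permutation F-test, adjusted over 14 pairs. Scripts were tested on simulated data. Copies were sought with blastn 2.17.0. Symbols were matched to GENCODE M1 (93 of 93) and RefSeq promoters. The genes named were both members of each pair, the highest and lowest subunit of each complex, the 6 smallest F-test p-values and X-linked members; Ndufa10, Ndufab1, Cox7c, Cox4nb and Prm2 among others were named after their values were seen. Members and gene lists were chosen with earlier results of these data known. Alternatives tried were other pseudocounts, filters, scalings, eBayes without trend, a replicate block, medians of libraries, and leaving out each library and each number.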

Additional observations from a re-analysis of the deposited data

Results flagged for a closer look

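By Dixon's ratio over the 4 sample numbers, 4 of 54 values stood apart, where chance gives about 2.7. Atp5g1 was at 131.3 FPKM in 186wt against 149.2 to 152.8 FPKM in the others. Cox4i2 was at 2.92 FPKM in 456wt against 1.2 to 1.29 FPKM. Ndufa1 was at 102.7 FPKM in 186wt against 86.2 to 87.6 FPKM. The median of all members was 75.2 FPKM in 456wt against 66.9 to 68.2 FPKM.

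By the limma F-test, 58.2% of all genes tested and 87.95% of those of at least 20 FPKM differed between sample numbers. The log2 ratio of isoform to paralog differed between them for 10 of 14 pairs by the exact permutation test. No ratios of other gene pairs were tested beside these, so the count is not read as particular to them. The adjusted p was 0.00303 for Cox6b2 and for Cyct, 0.00506 for Cox8c, 0.0120 for Cox4i2, 0.00364 for Cox7a1 and for Atp5g1, 0.00511 for Ndufa4l2, 0.00318 for Atp5g2, 0.000909 for Slc25a31 and 0.0313 for Pdha2. Of these 10, only Slc25a31 and Atp5g1 kept the call whichever sample number was left out. Leaving out a number also makes the test coarser, so a lost call does not show by itself that the difference rested on that number. The call was lost without 186wt for Cox7a1 (0.105) and Cyct (0.05), without 343wt for Cox6b2 (0.0571), Atp5g2 (0.0667), Cyct (0.0625) and Pdha2 (0.1), without 444wt for Cox8c (0.163), Cox4i2 (0.0571), Cox7a1 (0.0625) and Pdha2 (0.065), and without 456wt for Cox4i2 (0.458) and Ndufa4l2 (0.225).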

How the results depend on the processing

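The number of members that differed between sample numbers was 74 and stayed within 1.5 times of that under every alternative run, from 60 to 75. The lowest counts came when 186wt (60) or 456wt (62) was left out, and it was 63 without a filter on low values. The calls over all genes moved as well. They were 12107 of 20795 in the main fit, 11295 of 20786 without 186wt, 10502 of 20657 without 456wt and 10775 of 37620 without a filter. With a replicate block on the library index 72 members differed, all among the 74. Deviations of libraries with the same index and another sample number correlated at r from -0.065 to 0.128. With another index r ran from -0.128 to 0.083, so at most a weak pairing by index was seen. The number of members called in at least 1 pair was 81 (66 to 84), and 39 members were called by the F-test in all fits. Neither count was made over all genes, so neither is read as particular to the members. Of the ratios between sample numbers of testis isoforms, Cox6b2 ranged in adjusted p from 0.0125 to 0.0571 and Cox8c from 0.02 to 0.163 with 1 number left out, and lost the call once each (without 343wt and without 444wt). The other pairs that lost the call with 1 number left out are given above with their values. Cox6a2 gained the call with a pseudocount of 1 (0.0164) and without 186wt (0.0278). The ratios of the 3 testis isoforms kept their direction under every alternative run. Of 762 results of named members, 34 lost and 6 gained the call. The cause was not tested. Depth limits Cox8b and Cox6a2, each behind fewer than 30 fragments.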
